A study of Mus musculus with 12 samples.

Results

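The genes described here are 10 genes known for their expression in the sinusoidal endothelium of the liver: Stab1, Stab2, Lyve1, Fcgr2b, Mrc1, Clec4g, Oit3, Dnase1l3, Maf and Plvap. They were taken by name from the gene tables, in which each name occurred once, and are 10 of the 38127 genes counted. All 10 were among the 16643 genes with enough counts to be tested, Clec4g only through the CD31+ libraries described below. RNA-seq was performed on cells sorted from the liver of C57BL/6 mouse embryos, in 4 groups of 3 libraries, and every group was Ter119-CD45-, that is, negative for the erythrocyte marker Ter119 and the hematopoietic marker CD45. At embryonic day (E) 14.5 the groups were CD31+ cells (CD54+CD31+, carrying the endothelial adhesion protein CD31 that Pecam1 encodes), CD54+CD31- cells (the epithelial, hepatoblast-containing fraction) and P2 cells (CD54-CD31-Kit+CD24+, an erythroid progenitor fraction). The last group was CD54+CD31- cells at E18.5. CD31+ cells were profiled at E14.5 only, so that between them and the E18.5 cells age and cell population cannot be told apart.

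Liver sinusoids are lined by a fenestrated, discontinuous endothelium that clears macromolecules from the blood by endocytosis. Its scavenger receptors (Stab1, Stab2, Mrc1), its Fc receptor (Fcgr2b) and its hyaluronan receptor (Lyve1) serve this clearance, and the C-type lectin Clec4g binds glycans at the cell surface. Dnase1l3 is a secreted DNase, Maf is a transcription factor, Plvap forms the diaphragms of endothelial fenestrae and Oit3 encodes a secreted protein of the zona pellucida domain family. Several of these genes are not limited to endothelium: tissue macrophages are known to use Mrc1, Stab1, Lyve1, Fcgr2b and Maf.

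Between 40714017 and 64368883 reads were assigned to genes in each library. The levels below are CPM, the counts of a gene per 1e+06 counts of its library, scaled between libraries by the trimmed mean of M values (TMM), and are listed in the order of replicates 1, 2 and 3. Pecam1 was at 585, 645 and 542 CPM in the CD31+ libraries and at no more than 29.0 CPM in the others. Of the other libraries, P2 replicate 2 stood apart in endothelial genes: Pecam1 was at 4.57, 29.0 and 8.24 CPM in P2 cells. E18.5 CD54+CD31- replicate 1 stood apart in epithelial genes, with Alb at 2405 CPM against 26610 and 34540 CPM in replicates 2 and 3, and the 10 genes of a lung epithelium list summed to 9382 to 20960 CPM over the 3 E18.5 libraries against 250 CPM or less at E14.5. The members' calls, and the counts of other lists that changed, are also given without P2 replicate 2 or E18.5 replicate 1 where these libraries bear on them, and the part of the lung genes was not tested.

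All 10 genes are protein coding and lie on 6 chromosomes in the mouse build GRCm38. From the GENCODE annotation, Fcgr2b spans chr1:170958617-170976547, Mrc1 chr2:14229392-14332057, Lyve1 chr7:110850607-110863239, Oit3 chr10:59422958-59441778 and Stab2 chr10:86841198-87008025. Clec4g (chr8:3707064-3720651), Plvap (chr8:71497765-71511752) and Maf (chr8:115682942-115707794) share a chromosome, as do Dnase1l3 (chr14:7964533-7994573) and Stab1 (chr14:31139013-31168641). Mrc1 is on the plus strand and the other 9 are on the minus strand. Exons of Stab1, Stab2, Fcgr2b, Clec4g and Maf overlap exons of a gene on the opposite strand (Nt5dc2, Gm16268, Gm38204, Gm16553 and Gm15655). The library kit keeps the strand of the RNA, but the strand setting of the counting was not given in the sources used here, so reads of these 5 genes may hold reads of the partner.

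The promoters of genes that stand high together in a single population are shown for the members with an entry in the RefSeq promoter set (GRCm38.p6). Stab1, Stab2, Fcgr2b, Mrc1 and Clec4g had an entry, and Lyve1, Oit3, Dnase1l3, Maf and Plvap did not. The bases printed lie before both the RefSeq and the GENCODE start, 5′ to 3′ on the strand of the gene, at chr14:31168642-31168891 (minus strand) for Stab1, chr10:87008026-87008192 (minus) for Stab2, chr2:14229164-14229391 (plus) for Mrc1 and chr8:3720652-3720901 (minus) for Clec4g. The RefSeq window of Fcgr2b lies inside the GENCODE gene and is not printed. Capitals mark matches to the words searched: the ETS-type word AGGAAG and the word TGCTGA of MAF-family sites, each on both strands.
Stab1: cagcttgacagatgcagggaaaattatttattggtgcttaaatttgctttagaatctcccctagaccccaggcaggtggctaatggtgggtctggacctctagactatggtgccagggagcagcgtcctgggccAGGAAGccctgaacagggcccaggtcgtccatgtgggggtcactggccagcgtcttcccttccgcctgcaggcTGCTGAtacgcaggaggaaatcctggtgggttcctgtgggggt
Stab2: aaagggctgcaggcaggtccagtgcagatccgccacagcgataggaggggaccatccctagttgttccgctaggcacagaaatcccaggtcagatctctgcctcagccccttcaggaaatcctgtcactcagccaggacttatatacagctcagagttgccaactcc
Mrc1: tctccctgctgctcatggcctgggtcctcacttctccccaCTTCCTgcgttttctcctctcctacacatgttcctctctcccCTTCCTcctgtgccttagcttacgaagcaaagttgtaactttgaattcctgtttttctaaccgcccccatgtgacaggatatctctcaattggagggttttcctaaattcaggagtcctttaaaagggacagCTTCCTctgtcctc
Clec4g: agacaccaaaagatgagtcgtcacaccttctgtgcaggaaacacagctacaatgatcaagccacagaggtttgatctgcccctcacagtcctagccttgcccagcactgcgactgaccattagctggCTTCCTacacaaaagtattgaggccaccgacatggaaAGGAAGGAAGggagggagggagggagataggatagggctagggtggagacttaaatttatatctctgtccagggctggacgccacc

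The ETS word was found in the 250 bases before the RefSeq start of 4 of the 5 genes: 1 match in Stab1, 1 in Stab2 (outside the bases printed), 3 in Mrc1 and 3 in Clec4g, of which the AGGAAG matches overlap each other. Of all 32851 promoter windows of the same length, 29.5% held this word. The MAF word occurred in Stab1 alone of the 5, against 16.1% of all windows. GATA-type words (AGATAA or TGATAA) were found in none of the 5 and in 16.6% of all windows. These matches describe letters in a window and were not tested against binding.

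The levels are given first for the scavenger receptors. Stab2, a hyaluronan-clearing receptor, was at 2245, 1826 and 1991 CPM in CD31+ cells. In CD54+CD31- cells at E14.5 Stab2 was at 6.85, 6.89 and 10.4 CPM, in P2 cells at 12.4, 75.2 and 20.6 CPM, and in CD54+CD31- cells at E18.5 at 17.4, 42.3 and 34.6 CPM. The lowest CD31+ library was thus far above the highest of the other 9, and P2 replicate 2 was the highest of those. Its relative Stab1 was at 1434, 1358 and 1426 CPM in CD31+ cells. Stab1 differed from Stab2 in the CD54+CD31- cells of E14.5, at 64.4, 53.0 and 53.6 CPM, while it was at 8.66, 59.1 and 15.4 CPM in P2 cells and at 19.2, 40.0 and 36.5 CPM at E18.5. For Stab1 every E14.5 CD54+CD31- library was therefore above every E18.5 library, the reverse of the order for Stab2.

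Mrc1, the mannose receptor, was at 1305, 1425 and 1517 CPM in CD31+ cells. Outside them Mrc1 was at 18.6, 27.8 and 36.9 CPM in CD54+CD31- cells at E14.5, at 8.38, 54 and 15.4 CPM in P2 cells, and at 17.0, 51.7 and 41.1 CPM at E18.5, so that these 3 groups overlapped. Lyve1, the hyaluronan receptor shared with lymphatic vessels, was at 1764, 2112 and 1898 CPM in CD31+ cells. Its levels were 3.96, 8.59 and 8.0 CPM in CD54+CD31- cells at E14.5, 10.1, 77.9 and 21.7 CPM in P2 cells and 20.2, 36.1 and 24 CPM at E18.5. Again P2 replicate 2 was the highest library without the CD31 gate, and the E14.5 CD54+CD31- libraries were the lowest.

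Fcgr2b and Clec4g were the rare transcripts of the set. Fcgr2b, the inhibitory Fc receptor that takes up small immune complexes, was at 8.66, 11.3 and 13.1 CPM in CD31+ cells. It was at 0.340, 0.378 and 0.0987 CPM in CD54+CD31- cells at E14.5 and at 0, 0.416 and 0.154 CPM in P2 cells, where each group rested on 28 reads in all. At E18.5 Fcgr2b was at 0.681, 3.29 and 2.24 CPM, above all 6 of those libraries and below the CD31+ cells. Clec4g had 68, 15 and 33 reads in CD31+ cells, 0, 0 and 3 in CD54+CD31- cells at E14.5, 0 in each of the P2 libraries and 9, 5 and 16 at E18.5. At 0.671 ± 0.494 CPM (SD, n = 3), Clec4g was the only member below 1 CPM in CD31+ cells on average, and its lowest CD31+ library was 4.57-fold below its highest.

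Among the secreted proteins, Oit3 was at 848, 948 and 941 CPM in CD31+ cells. Oit3 was otherwise at 3.23, 3.87 and 4.17 CPM in CD54+CD31- cells at E14.5, at 4.94, 37.4 and 9.53 CPM in P2 cells and at 6.75, 10.6 and 9.10 CPM at E18.5. The E14.5 CD54+CD31- libraries were below the other 6, while the P2 and E18.5 libraries overlapped. Dnase1l3 was at 139.6, 179 and 152 CPM in CD31+ cells. Its other levels were 0.566, 0.976 and 1.43 CPM in CD54+CD31- cells at E14.5, 1.03, 6.45 and 2.00 CPM in P2 cells and 5.36, 9.73 and 6.27 CPM at E18.5. Every E18.5 library was above every E14.5 CD54+CD31- library for Dnase1l3.

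Maf, a transcription factor of the large Maf group, had the most even levels in CD31+ cells, at 412, 408 and 394 CPM. It was at 8.04, 8.15 and 12.9 CPM in CD54+CD31- cells at E14.5, at 2.69, 17.8 and 4.43 CPM in P2 cells and at 22.9, 32.6 and 28.8 CPM at E18.5, where all 3 libraries were above the other 6. Plvap was at 733, 647 and 409 CPM in CD31+ cells, with replicate 3 the lowest. In CD54+CD31- cells Plvap was at 3.03, 5.41 and 5.13 CPM at E14.5 and at 6.18, 10.4 and 10.7 CPM at E18.5, and in P2 cells it was at 12.7, 37.1 and 14.2 CPM. Plvap was thus the member whose 3 P2 libraries all lay above both CD54+CD31- groups.

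**Figure D1:**
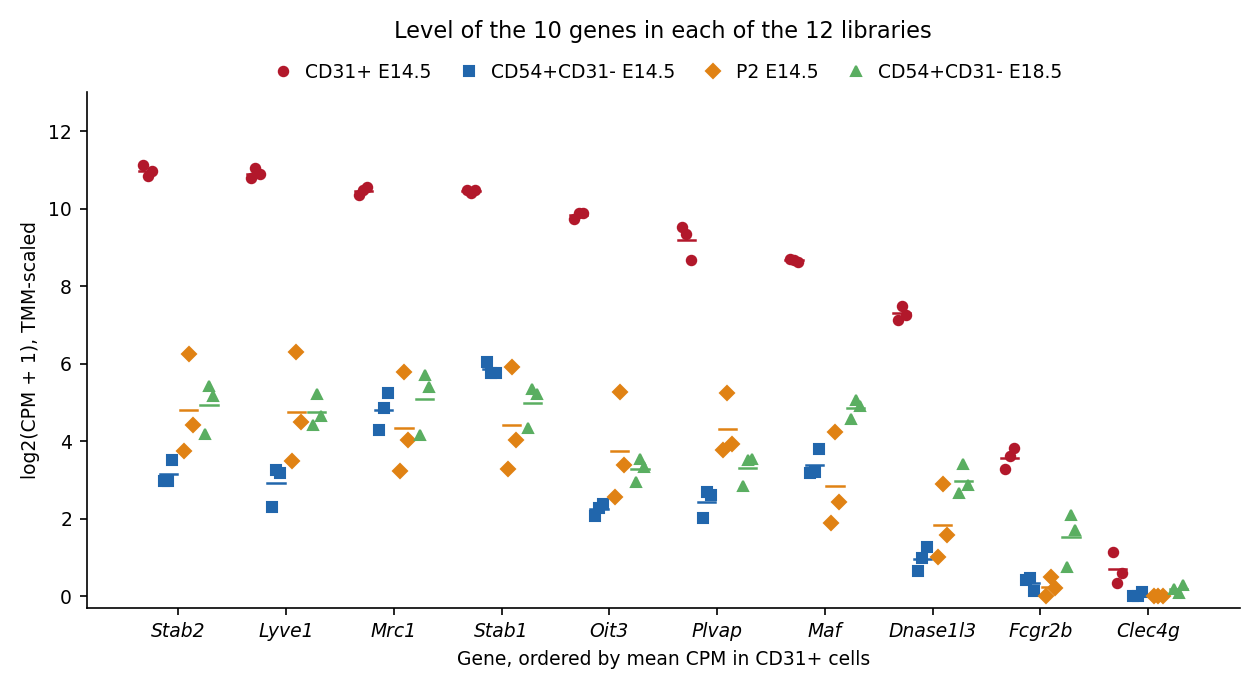
Level of each of the 10 genes in the 12 libraries, as log2(CPM + 1) with TMM scaling, by group; points are libraries and bars are the mean of the 3 log2 values. For each gene the 3 CD31+ libraries sit above the other 9, and Clec4g sits close to 0 throughout.

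Levels of different genes were compared per kilobase (kb) of exon. In CD31+ cells Lyve1 led with a mean of 659 CPM per kb, and its libraries (604 to 723) did not overlap those of any other member. Oit3 followed at 327 CPM per kb, then Plvap at 300.1, Stab2 at 231 and Mrc1 at 222 CPM per kb. The Plvap libraries, from 206 to 369 CPM per kb, overlapped those of Oit3, Stab2 and Mrc1, so Plvap was not separated from these neighbours. The Oit3 libraries (304 to 340) lay above those of Stab2 (208.5 to 256) and Mrc1 (205 to 238), which overlapped each other. Stab1 (137 CPM per kb), Maf (49.1) and Dnase1l3 (30.5) each had a range of their own. Fcgr2b at 1.90 and Clec4g at 0.272 CPM per kb came last.

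Against the CD54+CD31- cells of the same age, all 10 genes were higher in CD31+ cells (edgeR quasi-likelihood test, adjusted p below 0.05), and no member had overlapping libraries. Of all tested genes, 29.8% were higher in this comparison, and 32.1% were higher without overlap. The median log2 fold change of the 10 genes was 6.36, beside -0.03 over all tested genes. Lyve1 had the largest difference, a log2 fold change of 8.13 ± 0.78 (SE, n = 3 against 3, edgeR adjusted p = 4.03e-06), or 281-fold. Stab2 (7.97 ± 0.73), Oit3 (7.92 ± 0.72), Dnase1l3 (7.29 ± 0.66) and Plvap (7.04 ± 0.52) also passed a log2 fold change of 7. Below these came Mrc1 at 5.67 ± 0.71, Maf at 5.38 ± 0.62 and Fcgr2b at 5.36 ± 0.83, and Stab1 had the smallest difference of the abundant members, at 4.62 ± 0.62 (edgeR adjusted p = 5.64e-05). The 116 Clec4g reads of CD31+ cells against 3 gave a ratio of 23.8 with a 95% interval of 7.94 to 117 from counting error alone. Clec4g met the count filter through the CD31+ libraries, and it was not tested in fits of the CD31- groups alone. Its calls as higher in CD31+ cells, here and below, are therefore not read as support. P-values here measure the spread between libraries, estimated over all 4 groups and without pairing libraries by replicate number. The paper names independent litters for its E14.5 RNA-seq populations and does not describe the E18.5 libraries. In bulk RNA a lower level can come from fewer cells of a type or from less RNA per cell, and the data cannot tell these apart.

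Against P2 cells the 10 genes were again higher in CD31+ cells, each without overlap, where 36.2% of all tested genes were higher and 38.7% were higher without overlap. With the scaling factors that the authors used, that share was 44.9%, and the share of higher genes among all those called moved from 53.5 to 67.2%. This scaling moved the median of all genes from 0.18 to 0.56, and the 10 calls held under it. The members lay close together: 8 of them had a log2 fold change between 5.60 (Maf, ± 0.62) and 5.82 (Fcgr2b, ± 0.83), and Stab2 at 5.81 ± 0.66, Lyve1 at 5.72 ± 0.70 and Stab1 at 5.67 ± 0.66 were within their errors of each other. Plvap was apart at 4.81 ± 0.47 (edgeR adjusted p = 3.07e-06). Clec4g had no read in P2 cells and was at least 31.7-fold higher in CD31+ cells, against a floor of 3 reads over the group. Without P2 replicate 2, the members had log2 fold changes of 5.47 (Plvap) to 7.03 (Fcgr2b), Clec4g apart. All 10 were still called, beside 33% of all genes tested called higher.

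Against the E18.5 CD54+CD31- cells all 10 genes were higher in CD31+ cells, without overlap, beside 38.8% of all tested genes called and 40.5% without overlap. With the authors' factors 9 of the 10 passed and Clec4g did not (1.92, edgeR adjusted p = 0.0641), the share of all genes was 28.5%, higher genes were 43.2 instead of 56.7% of those called, and the median of all genes moved from 0.18 to -0.14. Oit3 had the largest difference, 6.69 ± 0.68 (edgeR adjusted p = 5.17e-06), followed by Lyve1 at 6.17 ± 0.71, Plvap at 6.04 ± 0.50 and Stab2 at 6.01 ± 0.67. Stab1 (5.46 ± 0.65), Mrc1 (5.27 ± 0.69), Dnase1l3 (4.46 ± 0.56) and Maf (3.85 ± 0.57) formed the middle of the order. The 2 rare transcripts differed least. Fcgr2b had a log2 fold change of 2.41 ± 0.67 (edgeR adjusted p = 0.00722), and Clec4g had 2.23 ± 0.81 (edgeR adjusted p = 0.0336). The Clec4g ratio was 4.73, with a counting interval of 3.15 to 7.33. Without E18.5 replicate 1, 9 of the 10 genes were called, beside 38.3% of all genes tested called higher, and Clec4g was not (2.21, edgeR adjusted p = 0.0706).

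**Figure D2:**
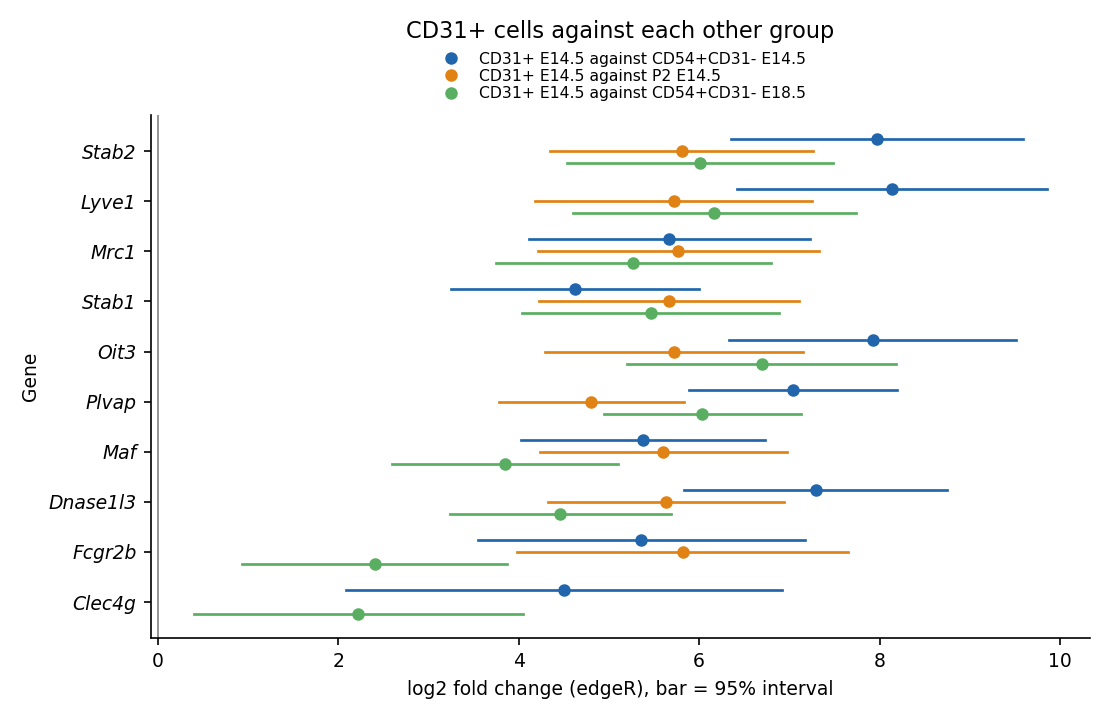
Log2 fold change of each gene in CD31+ cells against the 3 other groups (edgeR; error bars are 95% intervals). Clec4g against P2 cells is left out because P2 had no read; the values against P2 cells lie between 4.81 and 5.82, those against E14.5 CD54+CD31- cells between 4.51 and 8.13 and those against E18.5 cells between 2.23 and 6.69.

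All 10 members had every CD31+ library above the other 9, as had 13.6% of all tested genes. The 3 comparisons share the CD31+ libraries and are not independent of each other.

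Between the 2 ages of CD54+CD31- cells, 5 of the 10 genes were higher at E18.5, none was lower and 5 did not pass the test, where 30.6% of all tested genes were higher and 38.0% lower (68.6% in either direction). The median of the 10 genes was 1.75, beside -0.14 over all tested genes. With the authors' factors the latter became 0.28, higher genes were 60.6 instead of 44.6% of those called, and 7 members passed beside 67.6% of all genes in either direction. Fcgr2b had a log2 fold change of 2.96 ± 0.79 (edgeR adjusted p = 0.00595) and Dnase1l3 of 2.83 ± 0.58 (edgeR adjusted p = 0.00111). Lyve1 (1.97 ± 0.60), Stab2 (1.97 ± 0.57) and Maf (1.53 ± 0.53) also rose. Oit3 (1.23 ± 0.57, edgeR adjusted p = 0.0727) and Plvap (1.01 ± 0.42, edgeR adjusted p = 0.0521) missed the threshold, although their groups did not overlap. The groups did not overlap for 8 of the 10 members and for 75.5% of all tested genes. Stab1 had a log2 fold change of -0.84 ± 0.54 (edgeR adjusted p = 0.189), Mrc1 of 0.40 ± 0.58 (edgeR adjusted p = 0.557) and Clec4g 30 reads against 3.

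These calls depended on libraries outside the comparison, since the 4 groups share an estimate of spread for each gene. Without P2 replicate 2, 8 members differed between the ages, beside 67.5% of all genes tested: 7 higher, with Oit3 (1.23, edgeR adjusted p = 0.000866) and Plvap (1.01, edgeR adjusted p = 0.0095) among them, and Stab1 lower (-0.84, edgeR adjusted p = 0.016). Without E18.5 replicate 1, 6 were higher (29.1% of all genes tested), Plvap included (1.22, edgeR adjusted p = 0.0271), and without E18.5 replicate 2 the call of Maf was lost (edgeR adjusted p = 0.0583). The pan-endothelial genes of the same libraries moved too: 14 of 16 were higher at E18.5 (16 without P2 replicate 2, 13 without E18.5 replicate 1), with a median of 2.14, as were 11 of 11 stellate and mesenchymal genes, and the summed lung genes were at 9382 CPM or more. Their part in the members' difference was not tested.

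Between CD54+CD31- and P2 cells at E14.5, 5 members were lower in CD54+CD31- cells, none was higher and 5 did not pass, beside 31.4% of all genes lower and 34.3% higher (65.7% in either direction). With the authors' factors, higher genes were 63.6 instead of 52.2% of those called, the median of all genes moved from 0.06 to 0.34, and 4 members passed beside 63.5% of all genes in either direction. Lyve1 was lower by a log2 fold change of -2.42 ± 0.61 (edgeR adjusted p = 0.00445), Plvap by -2.24 ± 0.43 (edgeR adjusted p = 0.000717), Oit3 by -2.20 ± 0.58 (edgeR adjusted p = 0.00542) and Stab2 by -2.16 ± 0.57 (edgeR adjusted p = 0.00576), with no overlap for these 4. Of all tested genes, 71.7% did not overlap between these groups. Dnase1l3 passed at -1.66 ± 0.59 (edgeR adjusted p = 0.0272), with overlapping libraries. Stab1 (1.04 ± 0.55), Fcgr2b (0.46 ± 0.93), Maf (0.22 ± 0.53) and Mrc1 (0.10 ± 0.58) did not pass, and Clec4g had 3 reads against 0.

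This comparison turned on P2 replicate 2, the P2 library with the highest endothelial gene levels. Without it, Stab1 (2.24, edgeR adjusted p = 0.000123), Maf (1.45, edgeR adjusted p = 0.000684) and Mrc1 (1.22, edgeR adjusted p = 0.0332) were higher in CD54+CD31- cells. Stab2 (-1.04), Lyve1 (-1.22), Oit3 (-0.95) and Plvap (-1.57) stayed lower, and Dnase1l3 did not pass (-0.61, edgeR adjusted p = 0.213), so that 7 members differed beside 60.7% of all genes tested. Of 16 pan-endothelial genes, 13 were lower in CD54+CD31- cells with it and 10 without it, and 19 of 19 macrophage genes were higher either way. The part of either in the members' difference was not tested.

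**Figure D3:**
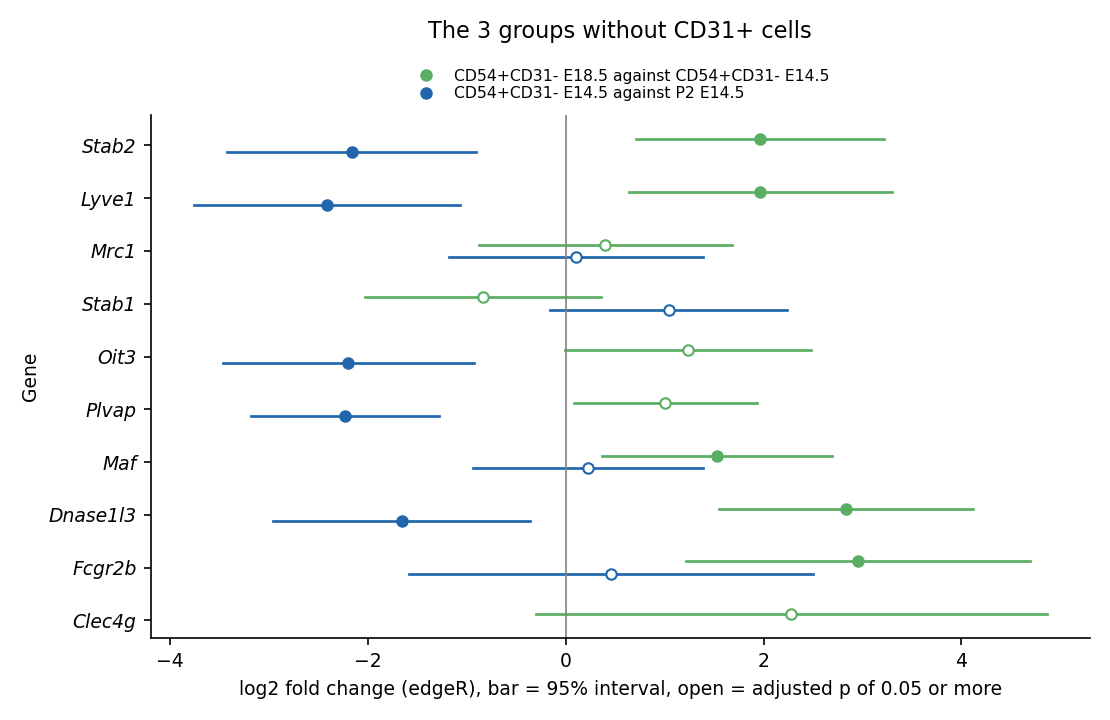
Log2 fold change of each gene between the CD31- groups (edgeR; error bars are 95% intervals): E18.5 against E14.5 CD54+CD31- cells, and CD54+CD31- against P2 cells at E14.5. Clec4g against P2 is left out because P2 had no read. Lyve1, Stab2, Oit3, Plvap and Dnase1l3 lie below 0 against P2 cells, while Stab1, Mrc1 and Maf do not.

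The low levels outside the CD31 gate were next expressed as a percentage of the mean CD31+ level of the same gene. In P2 cells, 7 members (Stab1, Stab2, Lyve1, Mrc1, Oit3, Dnase1l3 and Maf, grouped here after their values were seen) were at nearly the same percentage within a library. They were at 0.526 to 0.664% in replicate 1, 3.72 to 4.41% in replicate 2 and 1.02 to 1.28% in replicate 3, so that the highest was no more than 1.26-fold above the lowest in any P2 library. The median of 16 pan-endothelial genes in the same libraries was 0.635, 4.56 and 1.06%. Plvap was higher, at 2.13, 6.21 and 2.39%. Fcgr2b was at 0 to 3.78%, and Clec4g at 0 in all 3. With Plvap added to the 7, the highest was 4.04-, 1.67- and 2.35-fold above the lowest in replicates 1, 2 and 3. These values are a description with no test.

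In CD54+CD31- cells at E14.5 the highest of the same 7 members was 22.3-, 11.0- and 9.17-fold above the lowest in replicates 1, 2 and 3. Stab1 was at 4.58, 3.77 and 3.81% of its CD31+ mean, whereas Stab2, Lyve1 and Oit3 were between 0.206 and 0.513%, near the pan-endothelial medians of 0.411, 0.560 and 0.497%. Stab1, Mrc1 and Maf were at 1.31% or more in every one of these libraries. Macrophage genes summed to 303 to 453 CPM there, to 211 to 327 CPM in CD31+ cells and to 14.7 to 26.8 CPM in P2 cells, and none of the 19 was at 0 in all libraries of a group. Their part in the levels of Stab1, Mrc1 and Maf was not tested.

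At E18.5 Clec4g and Fcgr2b were nearest to their CD31+ level. Clec4g was at 20.8, 9.65 and 33.1% on 5 to 16 reads. Fcgr2b was at 6.19, 29.9 and 20.4% of its CD31+ mean, Maf at 5.65, 8.06 and 7.11% and Dnase1l3 at 3.41, 6.20 and 4.0%. Oit3 was the lowest of the 10, at 0.740, 1.16 and 0.997%, and the pan-endothelial medians were 2.69, 2.70 and 2.17%. Macrophage genes summed to 488 to 631 CPM in these libraries. Most of the sum in replicate 1 was Lyz2, at 530 CPM, and the other 18 genes summed to 101, 295 and 284 CPM. Replicate 1 was the lowest of the 3 for every member except Clec4g, Stab2, Lyve1 and Plvap included. It was also the lowest for 18 of the 19 macrophage genes, Csf1r (14.6, 44.5 and 44.7 CPM) among them and Lyz2 not. What part macrophage RNA had in these levels was not tested.

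**Figure D4:**
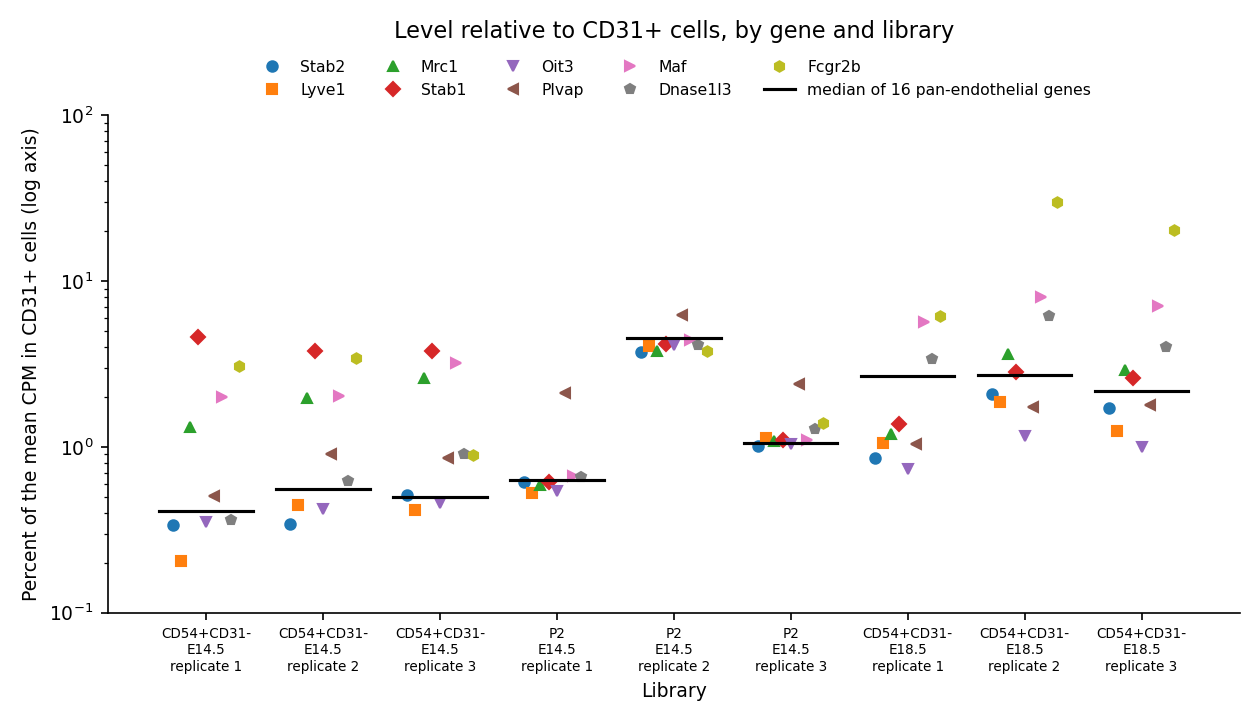
Level of 9 members in each library outside the CD31 gate as a percent of the gene's mean CPM in CD31+ cells (log axis); black bars are the median of 16 pan-endothelial genes. Clec4g is left out, and Fcgr2b is not drawn in P2 replicate 1, where it had no read. Without Fcgr2b and Plvap, the 7 members left span at most 1.26-fold within a P2 library and 6.93- to 22.3-fold within a CD54+CD31- library.

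Genes were also ranked by how closely their levels followed Stab2 over the 4 groups, by the distance between mean log2(CPM + 1) profiles, each centred on its own mean. Among 8435 genes with a mean of 10 CPM or more in CD31+ cells, Lyve1 was the nearest, at a distance of 0.155, and Oit3 was at rank 6 with 0.557. The nearest genes outside the set were Clec14a (0.307), Mmrn2 (0.33), Tie1 (0.485), Pcdh12 (0.542) and Gimap4 (0.581), of which Mmrn2 and Tie1 belong to the pan-endothelial list. Plvap (rank 33), Dnase1l3 (46) and Mrc1 (71) came later, followed by Maf (111) and Stab1 (156), and Fcgr2b at rank 378 was the farthest member that reached 10 CPM. Without P2 replicate 2 the nearest 7 genes had the same ranks, and Plvap moved to rank 42. Without E18.5 replicate 1, Lyve1 was at rank 3 and Oit3 at rank 15, and Clec14a, Cd93, Tek, Pcdh17 and Mmrn2 were the nearest genes outside the set. The ranking rests on 4 group means and carries no test.

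Other genes of the sinusoidal programme were counted from a list of 13. All 13 were higher in CD31+ than in CD54+CD31- cells at E14.5, beside 29.8% of all tested genes, with a median log2 fold change of 4.96. The highest were Flt4, a VEGF receptor, at 8.0 and Bmp6, a ligand that controls hepatic iron sensing, at 7.18, and the lowest were the homeobox gene Meis1 at 1.61 and the Wnt-enhancing ligand Rspo3 at 1.62. Against P2 cells all 13 were higher as well, beside 36.2% of all tested genes. Against E18.5 CD54+CD31- cells 10 of 13 were higher (11 without E18.5 replicate 1), beside 38.8% of all tested genes (38.3% without it). Wnt2 (0.13), Rspo3 (0.37) and the fatty acid receptor Cd36 (0.73, edgeR adjusted p = 0.0685) did not pass. Between the ages 9 were higher and 1 lower in CD54+CD31- cells at E18.5, beside 30.6 and 38.0% of all tested genes. Against P2 cells 4 were higher and 5 lower in CD54+CD31- cells, beside 34.3 and 31.4%. Without P2 replicate 2 the counts were 7 and 2, beside 32.3 and 28.4%.

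The pan-endothelial list gave 16 of 16 genes higher in CD31+ cells against each of the 3 groups. The shares of all tested genes were 29.8% against CD54+CD31- cells at E14.5, 36.2% against P2 cells and 38.8% against E18.5 cells. Against CD54+CD31- cells at E14.5 the list had a median of 7.68. There Sox18 (8.58) and the VEGF receptor Kdr (8.22) were the highest and Ramp2 (6.19) and the cadherin gene Cdh5 (6.46) the lowest. The differences of Stab1, Mrc1, Maf, Fcgr2b and Clec4g were thus below that of every pan-endothelial gene in this comparison. Genes of continuous capillaries or large vessels were also higher in CD31+ cells, 10 of 10 tested, from Meox2 (1.38) and Vwf (3.93) to Fabp4 (8.53). Ly6a had no read in CD54+CD31- cells at E14.5 and was at least 243-fold higher in CD31+ cells, while Cav1 and Esm1 were listed at 0 in all 12 libraries. Among lymphatic genes, Mmrn1 was higher (3.67) and Prox1 (-4.71) and Reln (-4.95) lower in CD31+ cells, and Ccl21a was listed at 0 in every library. Against P2 cells 3 of the 4 tested lymphatic genes were higher and 0 lower in CD31+ cells. Against E18.5 cells 1 (Mmrn1, 3.96) was higher and 3 lower. The defining genes Prox1, at 12.4, 9.03 and 12.8 CPM, and Pdpn, at 0.126, 0.445 and 0.206 CPM, were far below Lyve1 in the CD31+ libraries, where Lyve1 was at 1764 CPM or more. All 5 lymphatic genes together, Mmrn1 and Reln included, summed to 106, 133 and 130 CPM in these libraries and to 1194 to 1426 CPM in CD54+CD31- cells at E14.5. In the latter cells the 16 pan-endothelial genes summed to 45.8 to 70.1 CPM and the hepatoblast genes to 71680 to 82370 CPM. Which cells gave the reads of the lymphatic list there was not tested, and no lymphatic cells are read from the sum.

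Relatives of the 10 genes by function or family moved in both directions, as did the tested genes as a whole. Of all tested genes, 29.8% were higher and 31.1% lower in CD31+ than in CD54+CD31- cells at E14.5 (30.5 and 32.4% without E18.5 replicate 1). The shares were 36.2 and 31.5% against P2 cells, and 38.8 and 29.7% against E18.5 cells. Every CD31+ library was above the other 9 for 3 of 15 other endocytic and hyaluronan receptors (Scarf1, Colec12 and Msr1). The same held for 2 of 12 Fc receptor, Maf family and DNase genes (Fcgrt and Mafg) and for 1 of 7 caveola and vesicle genes (Ehd4), beside 13.6% of all tested genes. Msr1, Mafg and Ehd4 are named after their values were seen. Of the 15 receptors, 4 were higher and 4 lower in CD31+ than in CD54+CD31- cells at E14.5 (4 and 8 without E18.5 replicate 1), with a median of -0.40. The scavenger receptors Scarf1 (5.84) and Colec12 (4.70) were the highest, and Ly75 (-5.70), of the mannose receptor family, and Lrp1 (-4.67) were the lowest. Against P2 cells 9 were higher and 3 lower, and against E18.5 cells 4 and 7. Of the 12 tested Fc receptor, Maf family and DNase genes, 4 were higher and 1 lower (4 and 3 without E18.5 replicate 1). The neonatal Fc receptor Fcgrt (1.82) and the small Maf gene Mafk (0.93) were at the top, and the lowest values, those of the Fc receptors Fcgr4 (-1.60) and Fcgr1 (-1.25), did not pass. Against P2 cells 6 of these 12 genes were higher and 2 lower, and against E18.5 cells 4 and 3. Of 7 tested caveola and vesicle genes, 4 were higher, led by Cavin3 (4.33) and Cavin1 (2.10), and 3 lower, with Pacsin3 (-4.81) and Ehd1 (-1.43) at the bottom. The counts for these 7 were 5 and 2 against P2 cells, and 2 and 5 against E18.5 cells. Cav1, Cav2 and Cavin2 were listed at 0 in all 12 libraries, and the tables do not show whether reads of these genes could be counted, so no level is read from them.

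**Figure D5:**
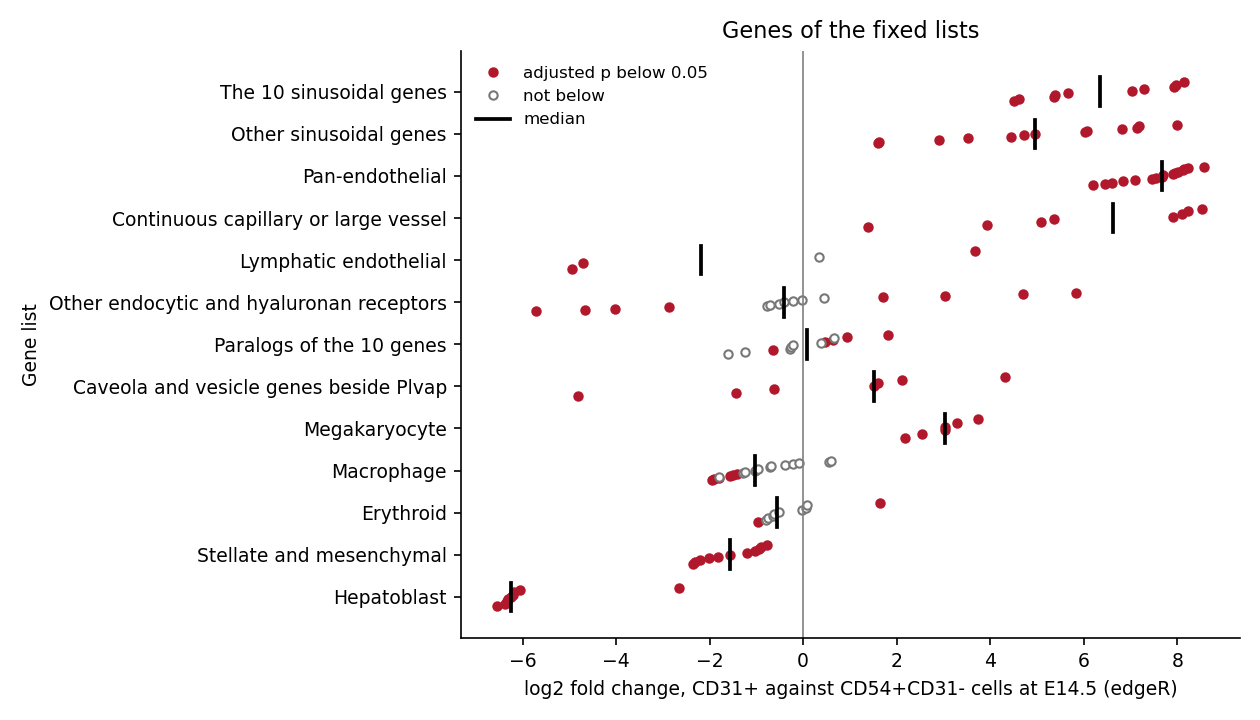
Log2 fold change in CD31+ against CD54+CD31- cells at E14.5 (edgeR) for the 10 genes and 12 lists; filled points passed the test and black bars are the median of the genes drawn. Ly6a and Ly6c1 are left out because CD54+CD31- cells had no read of them. The list labelled paralogs holds Fc receptor, Maf family and DNase genes, grouped by function or family name. The 10 genes and 3 other endothelial lists lie above 0, and the hepatoblast and stellate lists lie below 0.

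Markers of other cells were read beside the members. Megakaryocyte genes moved with them: 6 of 6 were higher in CD31+ than in CD54+CD31- cells at E14.5, beside 29.8% of all tested genes. They ran from Ppbp (2.17) and Gp9 (2.55) to Itga2b (3.73), and summed to 320 to 567 CPM in CD31+ cells against 95.1 CPM or less elsewhere. Pf4 was at 68.2, 190 and 150 CPM in CD31+ cells, and none of the 6 was at 0 there. Their part in the members' levels was not tested. Macrophage genes did not move with the members in this comparison, with 0 of 19 higher and 6 lower in CD31+ cells, or 1 and 11 without E18.5 replicate 1. The shares of all tested genes were 29.8 and 31.1%, or 30.5 and 32.4% without that library. Mertk (0.60) and Spi1 (0.55) were the highest and did not pass, and Csf1r (-1.95) and C1qa (-1.91) were lower. Against P2 cells, however, 18 of 19 macrophage genes were higher in CD31+ cells, beside all 10 members and 36.2% of all tested genes. In CD31+ cells Ptprc was at 8.17, 8.96 and 16.1 CPM, Adgre1 at 4.76, 6.75 and 13.8 CPM and C1qa at 0.754, 2.41 and 3.99 CPM, and replicate 3 was the highest for these genes. Of the members, Mrc1 and Fcgr2b were highest in CD31+ replicate 3, whereas Stab1, Stab2, Lyve1, Clec4g, Oit3, Dnase1l3, Maf and Plvap were not. The part of macrophage RNA in the members' levels in CD31+ cells was not tested.

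The remaining lists ran against the members or apart from them, where 29.8% of all tested genes were higher and 31.1% lower in CD31+ cells. Of 9 hepatoblast genes, all were lower in CD31+ than in CD54+CD31- cells at E14.5, from Epcam (-2.66) and Hnf4a (-6.06) to Afp (-6.38) and Alb (-6.55). Of 11 stellate and mesenchymal genes, all were lower, from Col1a1 (-0.77) and Col3a1 (-0.91) to Pdgfrb (-2.32) and Des (-2.35). Among 10 erythroid genes, Myb (1.65) was higher and Tfrc (-0.96) lower, and Epor (0.09) did not pass. Of 10 lung epithelial genes 1 was higher and 4 were lower, with Ager at 1.32 and Sftpd and Foxj1 the lowest at -4.90 and -4.18, while Nkx2-1 had 3 reads against 0.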

How the data were processed

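Reads from the 12 libraries (SMARTer Stranded Total RNA-Seq Pico kit) were trimmed, aligned to GRCm38 and counted by the authors, whose processing notes name cutadapt 1.11, STAR 2.5.0a and featureCounts 1.4.6-p3. The deposited tables hold raw counts per gene, which were used here, and a column normalized by the authors with 1 factor per library and rounded (read as a score), used only to recover those factors for an alternative scaling. Counts were fitted with edgeR 4.0.16 (R 4.3.3; TMM, filterByExpr, quasi-likelihood F test, group as the factor) over all 12 libraries, with Benjamini-Hochberg adjustment over 16643 genes and a threshold of 0.05. In simulated data, the fit of CD31+ against CD54+CD31- cells at E14.5 called 43 of 100 2-fold and 81 of 100 4-fold changes. It gave 0 calls of the wrong sign and 10 false calls. Only 200 of 16643 genes were changed there, and the others had the same mean level in all groups. In the data 60.8% of genes were called in this comparison, so these rates may not hold for it. A gene that did not pass may still differ. No replicates were duplicates. The members, gene lists and tests were chosen with earlier results of these data known. Named genes are the 10 members, the defining genes of each cell type, of each list the 2 highest and 2 lowest log2 fold changes in CD31+ against CD54+CD31- cells at E14.5, and the 5 genes nearest to Stab2. Some genes that this rule names are not reported here. Floors are 3 counts over a group, and counting intervals cover counting error only. Same-numbered CD31+ and CD54+CD31- libraries of E14.5 deviated together (correlations of 0.122 to 0.334). Deviations of 3 libraries from their mean are tied to each other. This does not settle whether the numbers, which come from the labels, pair the libraries. The alternatives were other scalings, DESeq2 1.42.0, other low count filters, fewer libraries and a replicate block. Counts of the lists and the ranking without P2 replicate 2 or E18.5 replicate 1, and macrophage sums without Lyz2, were added after seeing the data. Gene coordinates are GENCODE vM21.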

Additional observations from a re-analysis of the deposited data

How the results depend on the processing

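The 10 members were higher in CD31+ cells against CD54+CD31- and P2 cells at E14.5 under every alternative run that tested all 10 (8 of 8 with a minimum of 10 counts in every library), and each member kept its direction and its call in all of the 208 alternative values of either comparison. Against E18.5 cells 9 to 10 were higher when libraries were left out in turn, beside 5289 to 6505 of 16983 to 17162 genes. Clec4g lost its call in 8 of 19 alternatives there (DESeq2 kept it), with adjusted p up to 0.148, and its 15 to 68 reads per CD31+ library limit its precision. Between the ages, 4 to 8 members differed when libraries were left out, beside 10502 to 11665 of 16983 to 17162 genes. With DESeq2 7 members differed (11644 of 16643 genes), and with the authors' factors 7 (67.6% of genes), against 5 (68.6%). Between CD54+CD31- and P2 cells 4 to 7 differed when libraries were left out, beside 10213 to 11286 of 16983 to 17162 genes, against 5 (65.7%). In that comparison, 11 values of 3 members that had not passed changed sign without passing. With libraries left out in turn, Fcgr2b ranged from -0.071 to 1.67, Mrc1 from -0.32 to 1.22 and Maf from -0.20 to 1.45 (the highest without P2 replicate 2, where Mrc1 and Maf passed), and Mrc1 was at -0.00018 with DESeq2 and -0.090 with no low count filter. The cause was not tested. With the replicate number as a block, 10, 10 and 10 members were higher in CD31+ cells, 7 differed between the ages and 6 between CD54+CD31- and P2 cells, where Stab1 joined (1.35, edgeR adjusted p = 0.0464). Of 16643 genes in that fit, 4934, 5978 and 6433 were higher in CD31+ cells. Between the ages 11454 genes differed, and between CD54+CD31- and P2 cells 10884. Same-numbered libraries correlated at 0.0152 to 0.336 (mean 0.143) between CD31+ and P2 cells, where 4 of 6 libraries correlated best with their own number. Whether the numbers pair these 2 groups was thus not settled. For CD31+ and CD54+CD31- cells at E14.5 the mean was 0.239, with 6 of 6, which with so few libraries does not settle a pairing either. In the comparisons with E18.5 cells and of CD54+CD31- with P2 cells the correlations lay between -0.0898 and 0.0869, and no pairing is read from them.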
